A study of Mus musculus with 12 samples.

Results

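The genes described here are 10 genes that muscle fibers use to build the neuromuscular junction or switch on when the nerve is lost. They are the acetylcholine receptor subunits *Chrna1*, *Chrnb1*, *Chrnd*, *Chrne* and *Chrng*, the receptor kinase *Musk*, the adhesion molecule *Ncam1*, the transcription factors *Runx1* and *Myog*, and the stress gene *Gadd45a*. They were taken by gene name from tables of 55367 distinct gene symbols, and each of the 10 was found in every table. RNA was sequenced from 12 samples of single fibers of the extensor digitorum longus (EDL), a fast hindlimb muscle, of C57BL/6J mice, released from the muscle with collagenase. Of these samples, 4 came from young mice (3–4 months of age, here Young), and 4 of Fluo-4 normal and 4 of Fluo-4 abnormal fibers came from aged mice (26–28 months). Fluo-4 is a dye whose fluorescence rises with calcium, and the aged fibers were separated under a fluorescence stereomicroscope by whether their staining was normal or aberrant. The comparison of both aged groups asks how fibers with aberrant staining differ from their neighbors of the same age. Denervation was not a treatment in any group, and the number of fibers and mice behind a sample is not given in the sources used here.

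At the junction, agrin released by the motor nerve binds Lrp4 on the fiber and activates the kinase MuSK, which with Dok7 drives the anchoring protein rapsyn to cluster acetylcholine receptors under the nerve ending. The adult receptor is built from the alpha, beta, delta and epsilon subunits, and the fetal receptor carries gamma in place of epsilon. In an innervated adult fiber the receptor subunit genes and *Musk* are transcribed mainly by the nuclei beneath the synapse. After denervation nuclei along the fiber also transcribe *Chrna1*, *Chrnb1*, *Chrnd* and *Musk*, the fetal gamma subunit reappears, and *Ncam1*, *Runx1*, *Myog* and *Gadd45a* are induced.

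Sequence near the start of transcription is shown for *Chrnb1*, *Musk* and *Chrna1*. These members passed the test described below in Fluo-4 abnormal against Fluo-4 normal fibers. Short stretches are added for *Chrng* and *Chrne*, whose changes did not pass that test. Junction genes are known to be read through short motifs near the start of transcription. These motifs are the E-box (CANNTG), bound by myogenic factors such as myogenin, and the N-box (CCGGAA), bound by ETS factors. RefSeq gave a window of 250 upstream bases for 8 of the 10 genes (not for *Chrnd* and *Ncam1*), and each window was placed on the GRCm39 genome by an exact match. The windows of *Chrnb1* and *Musk* are printed up to the annotated gene start, on the strand of the gene, at chr11:69686774-69687013 and chr4:58285712-58285930. Capitals mark the E-boxes.
*Chrnb1*: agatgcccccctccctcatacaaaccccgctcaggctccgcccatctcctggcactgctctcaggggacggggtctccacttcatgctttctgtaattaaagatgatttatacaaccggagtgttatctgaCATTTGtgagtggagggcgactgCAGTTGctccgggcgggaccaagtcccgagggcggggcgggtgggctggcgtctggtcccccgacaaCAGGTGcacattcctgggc
*Musk*: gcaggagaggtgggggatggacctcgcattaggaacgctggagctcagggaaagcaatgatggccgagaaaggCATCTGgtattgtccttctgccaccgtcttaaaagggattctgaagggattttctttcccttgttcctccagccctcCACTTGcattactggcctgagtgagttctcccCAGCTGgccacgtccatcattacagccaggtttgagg
Both windows held 3 E-boxes, as did those of *Chrna1* and *Chrng* and 1 of the windows of *Runx1*, whereas *Myog* had 2 and *Chrne* and *Gadd45a* had 1 each. Of 32851 mouse promoter windows of this length, 66.2% held at least 1 E-box on either strand and 12.2% held at least 3. The closest spaced E-boxes of *Chrna1* (chr2:73410750-73410774) and *Chrng* (chr1:87133378-87133406) and the N-box of *Chrne* (chr11:70510079-70510108) are shown as short stretches, with the motifs in capitals. These 3 stretches lie upstream of a RefSeq transcript start but inside the annotated span of their genes.
*Chrna1*: CAGCTGtcatgcgggcacaCAGGTG
*Chrng*: CAGCTGacaatgcagtggtcagaCAGCTG
*Chrne*: cccaaacctagcCCGGAActaacaccctcc
An N-box stood in the windows of *Chrne* and *Gadd45a* and in the second window of *Runx1*, against 12% of all windows, and overlapped no E-box. A search for TGTGGT, the core bound by Runx factors, found no match in the windows of these genes, against 14% of all windows. A match gives only the letters and is not evidence of binding.

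The genes lie on 7 chromosomes of the GRCm39 build. *Chrnd* (chr1:87118306-87127795) and *Chrng* (chr1:87132379-87140416) are neighbors on the plus strand, and *Chrnb1* (chr11:69674860-69686773) and *Chrne* (chr11:70505707-70510125) share a chromosome. *Chrna1* is at chr2:73393557-73410835 and *Musk* at chr4:58285931-58377847. The libraries kept no record of the transcribed strand, so reads from a gene and from a transcript on the opposite strand of the same bases cannot be told apart. Such a partner overlapped *Chrne* by 1089 bp (4930544D05Rik, 0.441–1.12 TPM) and *Gadd45a* by 1298 bp (E230016M11Rik, 0.600–2.89 TPM), and non-coding partners overlapped *Chrna1*, *Musk*, *Ncam1*, *Runx1* and *Myog*. *Chrnb1*, *Chrnd* and *Chrng* had none.

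Levels are given as TPM, a share of all transcripts of a sample corrected for transcript length, with the whole set to 1000000. The read depth behind the values is unknown. The RNA was that of fast fibers: 8 muscle fiber markers summed to 140700–186700 TPM, and *Myh4* made up 93.7%–99.7% of the adult myosin heavy chain transcripts. This *Myh4* share was 96.88%–98.55% in Young, 93.72%–99.23% in Fluo-4 normal and 98.94%–99.66% in Fluo-4 abnormal samples. Of the 8 markers, *Myh4* and *Ryr1* were called higher in abnormal than in normal fibers (log2 changes of 0.66 and 0.72), where 7.36% of all genes were. Of 11 motor neuron markers, 7, including *Chat* and *Slc18a3*, were listed at 0 in all samples, and the list summed to at most 0.214 TPM. Schwann cell markers (8 genes, none at 0 in every sample) summed to 0.920–2.11 TPM in Young, 1.54–7.30 TPM in Fluo-4 normal and 3.97–8.51 TPM in Fluo-4 abnormal fibers. Tendon junction markers (4 genes, none at 0 in every sample) summed to 9.90–12.7, 13.3–14.4 and 15.9–22.3 TPM, of which *Scx*, called in each of the 3 comparisons, made up 68.6%–91.7% in a sample. Immune markers (6 genes, *Itgam* at 0 throughout) summed to 0.718–1.48 TPM in Young and to 5.07–14.7 TPM in the aged fibers, and *Lyz2* was called in both aged groups against Young. Satellite cell markers summed to 7.70–20.6 TPM with *Pax7* at no more than 0.109 TPM, and the fibroblast (13.6–82.4 TPM), endothelial (2.53–22.6 TPM), smooth muscle (3.34–64.3 TPM) and erythroid (33.1–481.6 TPM) lists overlapped between the groups. The part of these other cells in the results was not tested. In such pooled RNA, fewer fibers or nuclei expressing a gene and less RNA per fiber or nucleus cannot be told apart. The labels do not say that replicates came from separate mice, so the p-values measure the spread between these samples.

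*Musk*, *Chrnb1* and *Chrna1* were higher in Fluo-4 abnormal than in Fluo-4 normal fibers of the same age, and the other 7 genes did not pass the test. *Musk* was 3.24-fold, *Chrnb1* 1.96-fold and *Chrna1* 1.52-fold higher in mean TPM. *Chrnd*, *Chrne* and *Chrng*, which encode the remaining receptor subunits, were not called. Changes were tested with limma on log2(TPM + 1), a scale on which the change of low genes is understated, and a gene was called at an adjusted p below 0.05. The 3 genes called compare with 9.35% of the 14428 genes tested, or 7.36% higher and 1.99% lower. The same 3 genes had groups that did not overlap, against 14% of all genes. Of the 10 genes, 7 had a positive change, as did 69.6% of all genes tested, and the median change was 0.45, against 0.10 over all genes tested. Genes at 1 TPM or more had a median change of 0.20 in this comparison, so each change is also given relative to that median. Scaling by TMM-type factors took that median to 0.01 and lowered the share of higher genes among the calls from 78.7% to 36.1%. With same-numbered aged samples as pairs, 2281 genes were called in place of 1349, and the same 3 members were called. With the *Myh4* share as a further covariate in those pairs, 22 genes and 0 members were called (adjusted p = 0.056 for *Chrnb1* and 0.17 for *Musk* and *Chrna1*), with log2 changes of 0.87, 1.24 and 0.57.

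**Figure D1:**
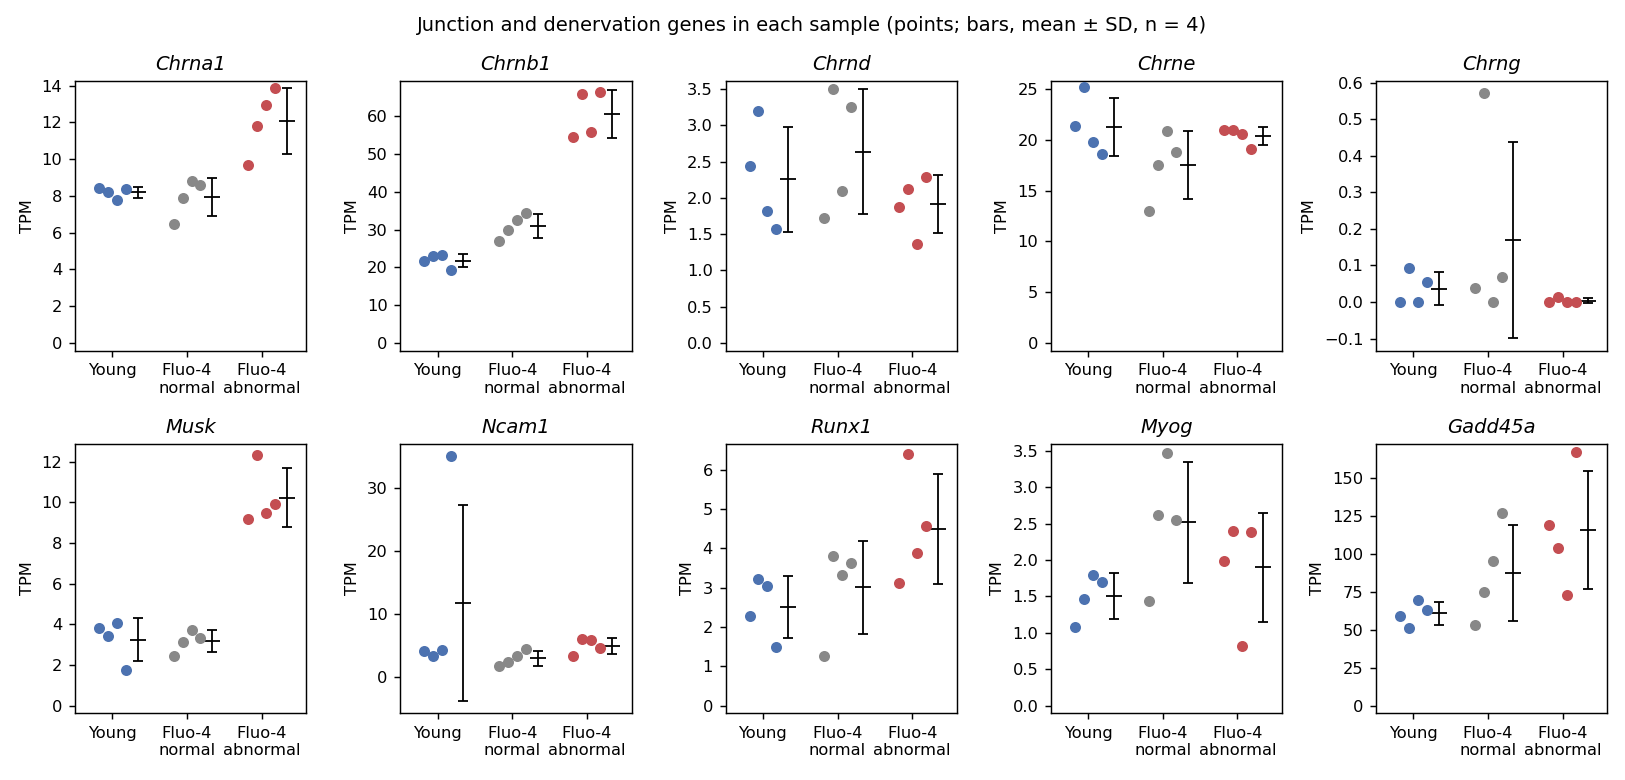
TPM (y axis, linear, 1 scale per gene) of each of the 10 genes in the 12 samples. Points are samples in order of replicate, and bars are the mean ± SD of 4 samples. The Fluo-4 abnormal samples lie above all others for *Musk*, *Chrnb1* and *Chrna1*, and Young replicate 4 stands alone at 35.0 TPM for *Ncam1*.

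*Chrnb1*, the beta subunit, stood at 21.6, 23.0, 23.1 and 19.4 TPM in the Young samples, at 26.9, 29.9, 32.6 and 34.4 TPM in the Fluo-4 normal samples and at 54.5, 65.8, 55.8 and 66.4 TPM in the Fluo-4 abnormal samples (replicates 1 to 4 each). The 3 groups did not overlap, and each abnormal sample was above every normal one. The means were 21.8 ± 1.75, 31.0 ± 3.26 and 60.6 ± 6.33 TPM (SD, n = 4). Between the aged groups the log2 change was 0.95 ± 0.10 (SE, adjusted p = 0.00049), or 0.75 relative to the median gene. Against Young, *Chrnb1* rose by 1.43 on the log2 scale in the abnormal fibers (2.78-fold, adjusted p = 6.3e-06) and by 0.49 in the normal fibers (1.42-fold, adjusted p = 0.034).

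*Chrna1*, the alpha subunit that carries most of the acetylcholine binding site, was at 8.40, 8.23, 7.76 and 8.37 TPM in Young, at 6.49, 7.88, 8.79 and 8.59 TPM in Fluo-4 normal and at 9.69, 11.8, 13.0 and 13.8 TPM in Fluo-4 abnormal samples. The abnormal samples were again the highest, by a narrow margin for replicate 1, and the other groups overlapped. The log2 change was 0.55 ± 0.13 against normal (SE, adjusted p = 0.018) and 0.50 against Young (adjusted p = 0.028), whereas normal against Young gave -0.05 (adjusted p = 0.92). Relative to the median gene the rise between the aged groups was 0.35. With TMM-type factors the change between the aged groups was 0.34 and did not pass the test (adjusted p = 0.11).

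*Chrne*, the epsilon subunit of the adult receptor, had the second highest mean of the subunits in each group. In Young its mean was close to that of *Chrnb1* (21.25 and 21.77 TPM), and in Young replicate 2 *Chrne* was the higher (25.2 and 23.0 TPM). It stood at 18.6–25.2 TPM in Young, 13.0–20.9 TPM in normal and 19.1–21.0 TPM in abnormal fibers, and the ranges overlapped. The log2 change between the aged groups was 0.23, with a 95% confidence interval of -0.06 to 0.51 (adjusted p = 0.30), and 0.03 relative to the median gene. *Chrnd*, the delta subunit, ranged over 1.57–3.20 TPM in Young, 1.72–3.50 TPM in normal and 1.37–2.30 TPM in abnormal fibers. Its change between the aged groups was -0.30, with an interval of -0.76 to 0.15 (adjusted p = 0.40). Neither subunit was called against Young (*Chrnd* -0.15, adjusted p = 0.73, and *Chrne* -0.05, adjusted p = 0.87, in the abnormal fibers).

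*Chrng*, the fetal gamma subunit, was close to 0 in all groups. The Young samples had 0, 0.092, 0 and 0.056 TPM, the normal samples 0.039, 0.571, 0 and 0.068 TPM and the abnormal samples 0, 0.013, 0 and 0 TPM. The single value above 0.1 TPM belonged to normal replicate 2, and 3 of 4 abnormal samples were listed at 0. *Chrng* made up at most 3.15% of the summed *Chrng* and *Chrne* transcripts of a sample, the value of normal replicate 2, and at most 0.0619% in the abnormal samples. The change between the aged groups was -0.20 (adjusted p = 0.29), a value that rests on levels near the bottom of the scale.

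Because the subunits are measured on 1 length-corrected scale, their levels can be added within a sample. The 5 subunits summed to 53.5 ± 4.84 TPM in Young, 59.3 ± 7.85 TPM in Fluo-4 normal and 95.1 ± 7.24 TPM in Fluo-4 abnormal fibers (SD, n = 4). The abnormal samples (87.1–101.6 TPM) did not overlap the others (48.0–65.1 TPM). *Chrnb1* made up 40.8% ± 2.35 of the sum in Young, 52.4% ± 2.58 in normal and 63.7% ± 1.94 in abnormal fibers, and the ranges 38.5%–44.1%, 50.4%–55.9% and 61.5%–65.3% were separate. *Chrne* held 39.6%, 29.5% and 21.6% of the sum in the same order, *Chrna1* 15.4%, 13.4% and 12.7%, and *Chrnd* 4.16%, 4.43% and 2.00%. The ratio of *Chrnb1* to *Chrna1* transcripts was 2.66 ± 0.29, 3.92 ± 0.20 and 5.07 ± 0.64. These shares and ratios are unaffected by how the samples are scaled, and no test was run on them because they combine the chosen genes. The sums do depend on the scaling, and TMM-type factors brought those of the aged groups closer.

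**Figure D2:**
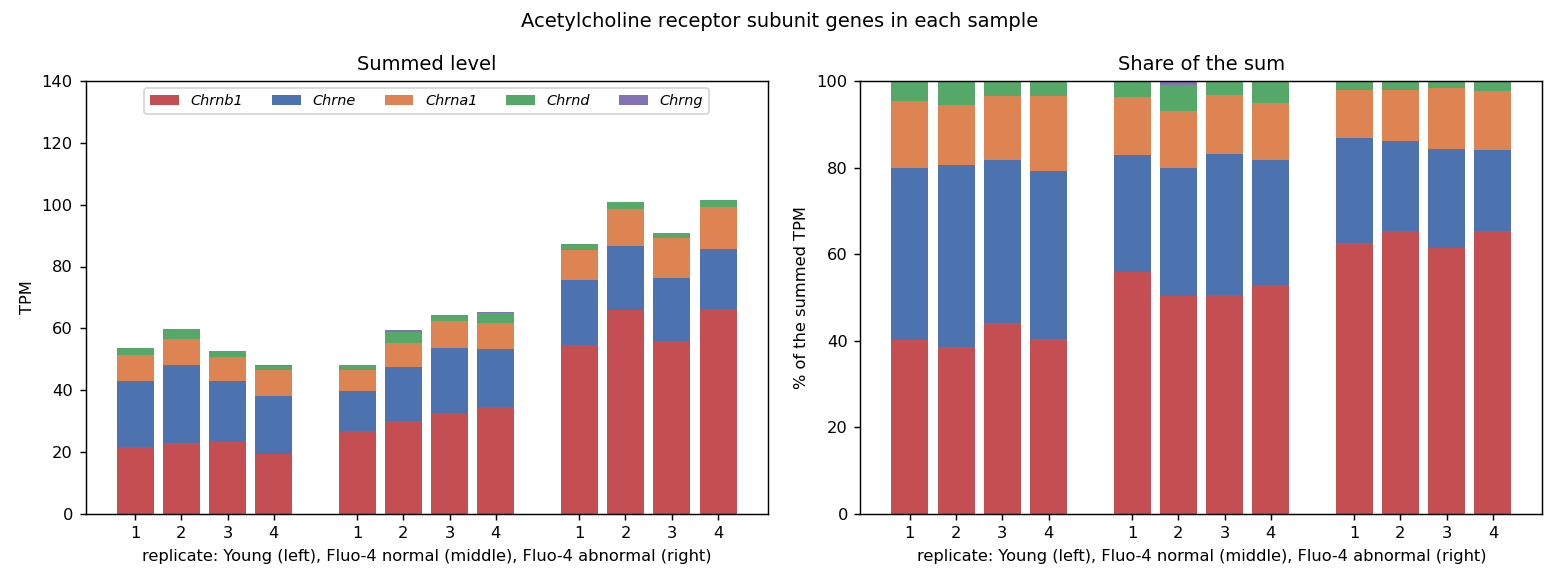
Levels of the 5 acetylcholine receptor subunit genes in each sample, stacked in TPM (left) and as a percent of their sum (right). The *Chrnb1* part of the bar takes 38.5%–44.1% in Young, 50.4%–55.9% in Fluo-4 normal and 61.5%–65.3% in Fluo-4 abnormal samples.

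*Musk*, the kinase that organizes the postsynaptic membrane, was at 3.80, 3.40, 4.06 and 1.73 TPM in Young, at 2.45, 3.11, 3.74 and 3.32 TPM in Fluo-4 normal and at 9.17, 12.3, 9.49 and 9.92 TPM in Fluo-4 abnormal samples. Every abnormal sample was more than 9 TPM and every other sample less than 5 TPM, and the Young and normal groups overlapped. The means were 3.25 ± 1.04, 3.16 ± 0.54 and 10.2 ± 1.44 TPM (SD, n = 4). The log2 change was 1.44 ± 0.20 against normal (SE, adjusted p = 0.0012), which is 1.24 relative to the median gene, and 1.43 ± 0.20 against Young (adjusted p = 0.00084). Normal against Young gave -0.0022, with a 95% confidence interval of -0.42 to 0.42. The Schwann cell markers summed to a median of 1.11 TPM in Young, 2.17 TPM in normal and 4.43 TPM in abnormal fibers. All 7 that were tested had a positive change in each comparison. Of all genes tested, 69.6% had one in abnormal against normal, 66.4% in abnormal against Young and 43.5% in normal against Young. The median change of the 7 between the aged groups was 0.098, against 0.10 over all genes tested. *Mbp*, a myelin protein, was at 0.408 TPM in Young, 1.83 TPM in normal and 3.36 TPM in abnormal fibers. Against Young, *Mbp* (8.23-fold, adjusted p = 0.0065) and *Sox10* (log2 change 0.28, adjusted p = 0.021) were called in the abnormal fibers, and 0 of the 7 were called between the aged groups (*Mbp* log2 change 0.71, adjusted p = 0.16, with 1 of the 7 at an unadjusted p below 0.05 in limma). Their part in the *Musk* change was not tested.

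*Ncam1*, which spreads from the synapse over the fiber surface after denervation and is also made by satellite cells and Schwann cells, was set apart by 1 library. Young replicate 4 had 35.0 TPM, whereas the other Young samples had 4.19, 3.32 and 4.32 TPM. The normal samples had 1.77, 2.35, 3.30 and 4.41 TPM and the abnormal samples 3.27, 6.04, 5.81 and 4.54 TPM. The aged groups overlapped, with a log2 change of 0.60 (95% confidence interval -0.54 to 1.74, adjusted p = 0.51). Against Young the abnormal fibers gave -0.48 (adjusted p = 0.64) with replicate 4 and 0.24 (adjusted p = 0.67) without it.

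*Runx1*, a transcription factor induced in denervated fibers, was at 2.28, 3.22, 3.05 and 1.48 TPM in Young, 1.27, 3.81, 3.32 and 3.62 TPM in normal and 3.12, 6.40, 3.88 and 4.57 TPM in abnormal samples. The highest values were abnormal, but the groups overlapped at the level of abnormal replicate 1. Its log2 change was 0.48 between the aged groups (95% confidence interval -0.10 to 1.06, adjusted p = 0.28) and 0.64 in abnormal against Young fibers (interval 0.06 to 1.22, adjusted p = 0.17). *Myog*, the myogenic factor that drives receptor subunit genes in denervated muscle, was low in all groups, at 1.08–1.79 TPM in Young, 1.43–3.47 TPM in normal and 0.817–2.39 TPM in abnormal fibers. Its change between the aged groups was -0.29 (interval -0.79 to 0.21, adjusted p = 0.47), with the lowest value of all in abnormal replicate 3. Neither factor passed the test in any comparison.

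*Gadd45a*, a stress-induced nuclear protein that rises in denervated muscle, was the most abundant of the 10 genes. It was at 59.3, 51.3, 69.8 and 62.9 TPM in Young, 52.9, 74.6, 95.4 and 127 TPM in Fluo-4 normal and 119, 104, 73.0 and 167 TPM in Fluo-4 abnormal samples. Every abnormal sample exceeded every Young sample, replicate 3 by a small margin, and the normal samples spread over both. The log2 change was 0.41 between the aged groups (95% confidence interval -0.14 to 0.96, adjusted p = 0.34) and 0.86 in abnormal against Young fibers (1.90-fold, adjusted p = 0.053). The latter fell just outside the threshold. With the adjusted p rounded to 2 digits, it was inside in 7 of 23 alternative fits. Among them were those without normal replicate 1 or 4 or abnormal replicate 3 (adjusted p = 0.026 to 0.047).

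**Figure D3:**
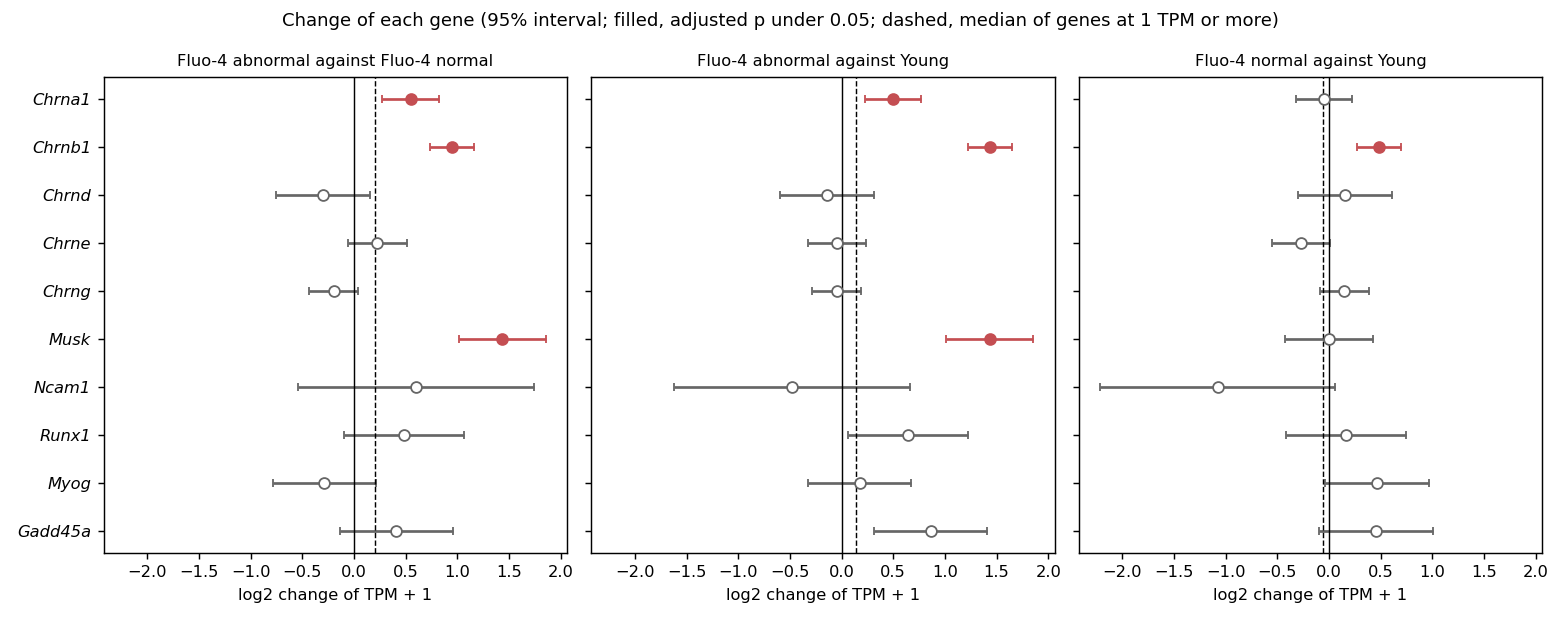
Log2 change of TPM + 1 for each gene (x axis) in the 3 comparisons, with 95% confidence intervals. Filled red points had an adjusted p below 0.05, and the dashed line is the median change of genes at 1 TPM or more (0.20, 0.14 and -0.06 from left to right). *Musk*, *Chrnb1* and *Chrna1* are filled in both comparisons with the abnormal fibers, and *Chrnb1* in all 3.

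Compared with Young, the Fluo-4 abnormal fibers had higher *Chrnb1*, *Musk* and *Chrna1*. This comparison differs from the preceding one in that it takes in age as well as staining, which it cannot separate, and it uses the same abnormal samples. The 3 genes called compare with 8.5% of all genes tested (6.09% higher and 2.41% lower), and with *Gadd45a* 4 genes had groups that did not overlap, against 16.2% of all genes. The median change of the 10 genes was 0.34, against 0.07 over all genes and 0.14 over genes at 1 TPM or more. With TMM-type factors the share of higher genes among the calls went from 71.7% to 39.2%. The *Chrna1* call was lost when any 1 Young sample or abnormal replicate 2, 3 or 4 was left out (adjusted p = 0.057 to 0.077) and with TMM-type factors (adjusted p = 0.096).

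The Fluo-4 normal fibers and Young differ in age, and the sources used here do not say whether the Young fibers were stained or sorted. Between these groups *Chrnb1* was the only 1 of the 10 genes called. It compares with 1.15% of all genes tested (0.561% higher and 0.589% lower), and it was also the only member whose groups did not overlap, against 7.98% of all genes. The call was marginal: it was lost in the absence of any 1 Young sample or of normal replicate 2, 3 or 4 (adjusted p = 0.081 to 0.11), although the log2 change kept to 0.43 to 0.55. *Musk* and *Chrna1* had log2 changes of -0.0022 and -0.05 with adjusted p = 1 and 0.92. Within the shared samples, then, *Chrnb1* values ran Young, normal, abnormal without overlap, while *Musk* and *Chrna1* values separated the abnormal samples from the rest.

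The partners of these genes in junction assembly were taken from a list of 30 genes, of which 28 were tested. Between the aged groups 25 of the 28 had a positive change, beside 69.6% of all genes and 77.7% of those at 1 TPM or more. Of the 28, 1 was called, beside 9.35% of all genes, with a median of 0.28 against 0.10 over all genes and 0.20 over genes at 1 TPM or more. The gene called was *Prkar1a*, a regulatory subunit of protein kinase A (45.2 TPM in normal and 58.2 TPM in abnormal fibers, log2 change 0.36, adjusted p = 0.029). With TMM-type factors the median was 0.06 and no gene was called, whereas 9 of the 28 had an unadjusted p below 0.05 in limma without them. With the aged samples as pairs 4 of the 28 were called, and without normal replicate 1 or 2 or abnormal replicate 2 or 4 none was. The genes that act with *Musk* were not called. *Dok7*, its activator inside the fiber, was at 11.0 ± 2.03 and 12.2 ± 3.19 TPM in normal and abnormal fibers (SD, n = 4), and *Rapsn*, which anchors the receptor, at 38.4 ± 2.38 and 43.2 ± 5.15 TPM. *Lrp4*, the agrin receptor, was at 0.739 and 0.884 TPM, and *Agrn* at 0.289 and 0.268 TPM. The log2 changes of these 4 genes lay between -0.03 and 0.16. *Ache*, which degrades acetylcholine, went from 43.6 to 60.8 TPM (0.48, adjusted p = 0.074), its collagen tail *Colq* from 4.45 to 5.12 TPM (0.17, adjusted p = 0.55), and the ETS factor *Etv5* from 5.12 to 6.79 TPM (0.37, adjusted p = 0.14).

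Against Young, 2 of the 28 genes of the list rose in the abnormal fibers, where 6.09% of all genes were called higher. These were *Dtna*, the dystrobrevin of the postsynaptic scaffold (0.44, adjusted p = 0.0063), and *Pak1*, a kinase of receptor clustering (0.86, adjusted p = 0.026). The list had a median of 0.22, against 0.07 over all genes and 0.14 over genes at 1 TPM or more. Without Young replicate 2, 3 or 4 or abnormal replicate 1, 2 or 4, 1 gene was called in place of 2. In normal against Young fibers 0 of the 28 were called in limma (3 at an unadjusted p below 0.05, and 1 called with TMM-type factors), with a median of -0.06.

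Another 23 genes known to respond to denervation were all tested. Between the aged groups 16 had a positive change, beside 69.6% of all genes and 77.7% of those at 1 TPM or more. The median was 0.20, against 0.10 over all genes and 0.20 over genes at 1 TPM or more. Of the 23, 1 was called, where 9.35% of all genes were. This was *Sln*, sarcolipin, an inhibitor of the calcium pump of the sarcoplasmic reticulum. *Sln* stood at 0.117–0.597 TPM in Young, at 0.929, 5.77, 3.39 and 3.07 TPM in normal and at 3.75, 35.1, 10.3 and 13.1 TPM in abnormal samples. The lowest abnormal sample lay within the normal range, and the log2 change was 1.72 ± 0.50 (SE, adjusted p = 0.046). *Hdac4*, which represses the repressors of *Myog* in denervated fibers, was at 13.8 ± 4.60 and 19.7 ± 6.30 TPM (adjusted p = 0.23), and its target *Dach2* at 0.387 and 0.0645 TPM (-0.35, adjusted p = 0.14). *Hdac9* (1.84 and 1.42 TPM) and *Myod1* (14.6 and 17.8 TPM) were not called. The developmental myosins were low, with *Myh3* at most 0.156 TPM and *Myh8* at 3.03 TPM in normal and 4.18 TPM in abnormal fibers (0.34, adjusted p = 0.24). With TMM-type factors the median of the list was -0.01 and 0 genes were called (4 at an unadjusted p below 0.05 without them), and with the aged samples as pairs 3 were called. The single call was not stable, since leaving out any 1 of the 12 samples other than abnormal replicate 1 left 0 genes of the list called.

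Compared with Young, 6 of the 23 genes were higher in the abnormal fibers, where 6.09% of all genes were called higher. They were *Sln* (3.26, adjusted p = 0.0017), the stretch-responsive *Ankrd1* (1.53, adjusted p = 0.0026), the atrial and embryonic light chain *Myl4* (0.76, adjusted p = 0.0033), the cell-cycle inhibitor *Cdkn1a* (1.43, adjusted p = 0.0062), the TWEAK receptor *Tnfrsf12a* (1.16, adjusted p = 0.0096) and the growth factor binding protein *Fgfbp1* (1.29, adjusted p = 0.031). *Ankrd1* (1.31, adjusted p = 0.023) and *Myl4* (0.80, adjusted p = 0.0099) were also higher in the normal fibers than in Young, where the other 21 did not pass and 0.561% of all genes were called higher. Leaving out Young replicate 2 or 3 left 0 genes called in that comparison, and leaving out Young replicate 1, normal replicate 2, 3 or 4 or abnormal replicate 2 left 1. The median of the list was 0.32 in abnormal and 0.06 in normal fibers against Young. All genes had medians of 0.07 and -0.02, and genes at 1 TPM or more had 0.14 and -0.06. Between the aged groups the changes of *Myl4* (-0.03) and *Fgfbp1* (0.08) did not pass (adjusted p = 0.91 for both).

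**Figure D4:**
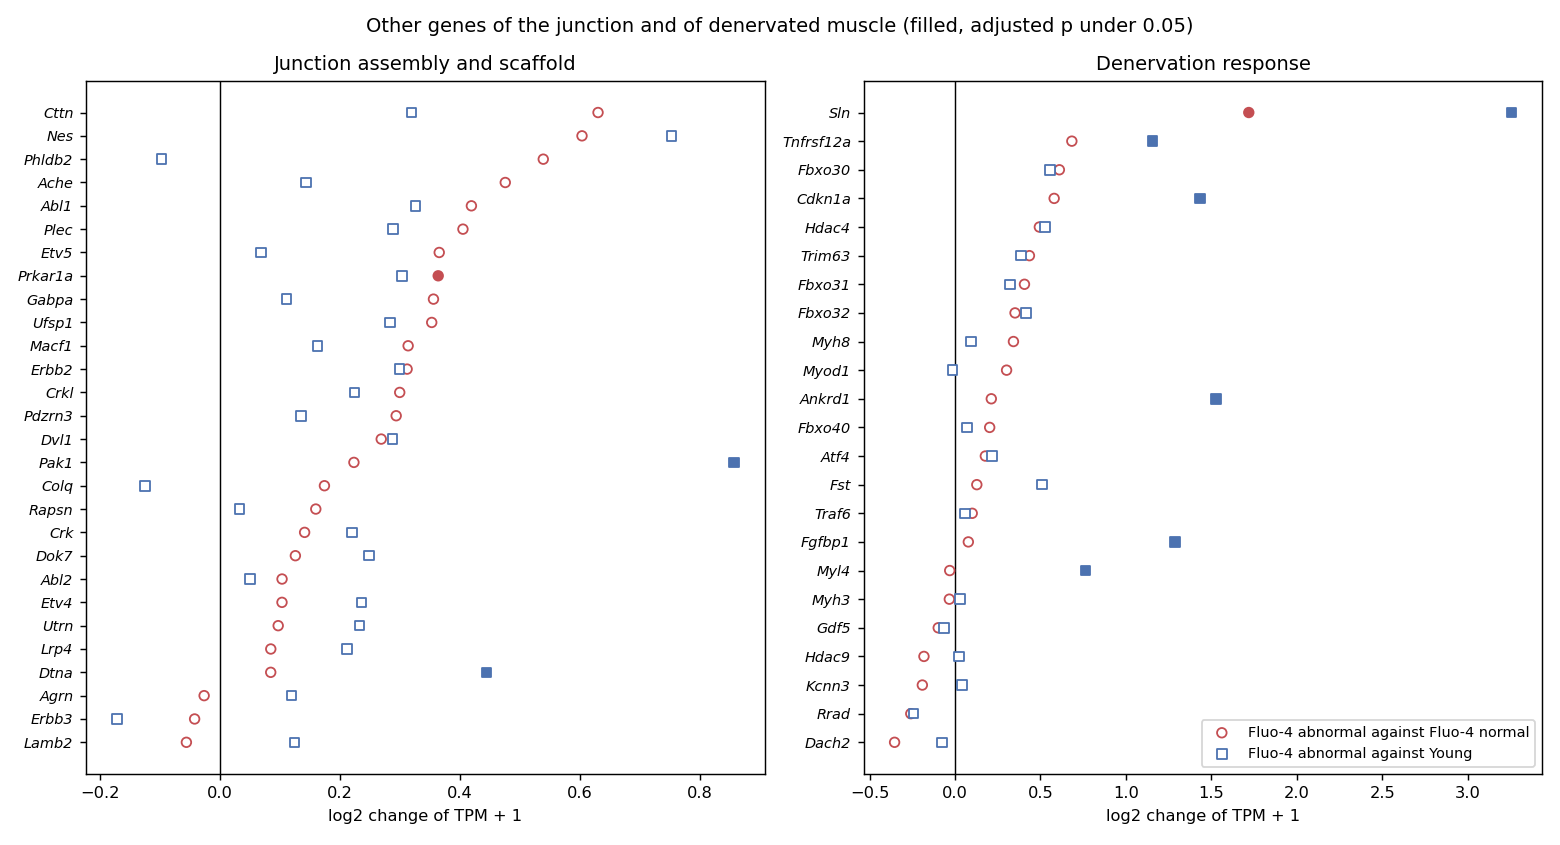
Log2 change of TPM + 1 (x axis) of the 28 tested genes of junction assembly (left) and the 23 genes of the denervation response (right) in Fluo-4 abnormal fibers, against Fluo-4 normal (circles) and against Young (squares). Filled symbols had an adjusted p below 0.05: 1 circle in each panel (*Prkar1a* and *Sln*), 2 squares on the left and 6 on the right.

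Among 9111 genes at a mean of 1 TPM or more, those with the profile most like *Chrnb1* over the 12 samples were *Rasd2* (Pearson r = 0.983), *Pdlim3* (0.976) and *Bin1* (0.975), the last an organizer of the T-tubule membrane. For *Musk* they were F830016B08Rik (0.981), *Ftsj3* (0.973) and *Mss51* (0.970), and for *Chrna1* they were *Cobl* (0.989), *Psmd4* (0.975) and *Rpl4* (0.969). *Musk* and *Chrnb1* correlated at 0.919 with each other and at 0.736 on deviations from the group means, and *Musk* and *Chrna1* at 0.856 and 0.220. *Chrnb1* and *Chrne* gave 0.103 over all samples and 0.554 on the deviations. These coefficients describe 12 samples in 3 groups and follow the group differences that the samples share.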

How the data were processed

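RNA of isolated EDL fibers was made into SMART-Seq v4 libraries from 10 ng per sample. The authors aligned the reads to GRCm39 with DRAGEN 4.3, per the methods, and deposited TPM per gene symbol, 1 table per sample, with the annotation release not given in the sources used here. Symbols on several lines (114) were summed, and 49848 symbols matched GENCODE vM39. Counts were not used here, so no depth and no counting interval is given.

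A limma 3.58.1 model (R 4.3.3) of the 3 groups was fitted to log2(TPM + 1) with a variance trend over 14428 protein-coding and mitochondrially-encoded genes that reached a mean of 0.02 TPM in 1 or more groups, with Benjamini-Hochberg adjustment over all of them. The fit was also run on simulated data with independent noise for each gene. Those data held no pairs and no shift in scale between groups, so the run does not cover these features. Groups came from the sample titles. Members and lists were chosen with earlier results of these data known. Genes named beyond the 10 members were those of the lists that were called, at most 6 per list and comparison, a fixed set described for its role (*Agrn*, *Lrp4*, *Dok7*, *Rapsn*, *Ache*, *Colq*, *Etv5*, *Hdac4*, *Hdac9*, *Dach2*, *Myod1*, *Sln*, *Cdkn1a*, *Myh3* and *Myh8*), and the 3 genes most correlated with each called member. Of the denervation list, 1 gene is not reported here. Marker lists covered muscle fibers and the other cells named in the text. The fit was repeated with TMM-type factors (30% and 5% trimmed), rescaling that left out the mitochondrially-encoded genes, a pseudocount of 0.1, no filter or a filter of 1 TPM, all annotated genes, only the groups compared, sample quality weights, no variance trend, the *Myh4* share as a covariate, a replicate block and leaving out each sample. The block combined with the *Myh4* share was added after the data were seen.

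The labels number the replicates but do not say that replicates of 1 number share a mouse. Over 4468 genes, deviations of same-numbered normal and abnormal samples from their group means correlated at 0.33 to 0.51, against -0.43 to 0.28 for other numbers, so the aged samples were treated as pairs in the block. Against Young, same numbers gave -0.12 to 0.24, and pairing with Young was assumed only in the alternative fit with the replicate block over all samples. Near-identical transcripts were searched with BLAST 2.17.0 (95% identity over 100 bp), and of the members *Gadd45a* alone had a match over most of a transcript, to its antisense partner. Shorter stretches of *Chrna1* matched 211 other genes, over 407 bp at the longest, and their effect on its TPM was not tested. Promoter windows are from RefSeq (GRCm38.p6) and were matched exactly to GRCm39. Tables were built in Python 3.11.15 with numpy 2.4.6 and pandas 2.3.3, and plots with matplotlib 3.10.9.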

Additional observations from a re-analysis of the deposited data

Results flagged for a closer look

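The gap of the highest or lowest sample to its neighbor was compared with Dixon's critical value for 4 samples at the 95% level in 99 combinations of gene and group, of which 8 exceeded it, and chance gives about 1 in 20. Among the members, *Ncam1* in Young had a highest sample of 35.0 TPM (replicate 4) with the next at 4.32 TPM. *Chrng* had a highest normal sample of 0.571 TPM (replicate 2, the next at 0.068 TPM) and a highest abnormal sample of 0.013 TPM, with the others listed at 0.

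Of the other genes in Young, *Prkar1a* had a lowest sample of 42.5 TPM (next 48.0 TPM), *Dok7* a lowest sample of 8.87 TPM (next 10.2 TPM), *Ankrd1* a highest sample of 14.8 TPM (next 9.31 TPM) and *Dach2* a highest sample of 0.438 TPM (next 0.072 TPM). In the Fluo-4 normal fibers *Myh8* had a lowest sample of 2.55 TPM (next 3.16 TPM).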

How the results depend on the processing

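Read depth is unknown and each group has 4 samples, which limits the precision of genes near 0 TPM such as *Chrng*, for which the filter of 1 TPM gave no value. The rise of *Chrnb1* and *Musk* in abnormal against normal fibers was called in 24 of 25 alternatives, with log2 changes of 0.73 to 1.00 and 1.24 to 1.67 over all 25, and that of *Chrna1* in 22 of 25 (0.34 to 0.68). The exceptions were the replicate block with the *Myh4* share (adjusted p = 0.056 for *Chrnb1* and 0.17 for *Musk* and *Chrna1*) and, for *Chrna1*, TMM-type factors (0.11) and only the groups compared (0.065). Against Young, the *Chrnb1* and *Musk* rises in abnormal fibers were called in all 23 alternatives, the *Chrna1* rise in 15 of 23, and that of *Chrnb1* in normal fibers in 13 of 23. The cause of these losses was not tested.

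Genes called between abnormal and normal fibers numbered 848 with TMM-type factors, 566 with only the groups compared, 820 with the *Myh4* share, 2281 with the replicate block within the aged samples, and 22 (with 2242 at an unadjusted p below 0.05 in limma, and 0 members called) with the block and the *Myh4* share together. Between normal fibers and Young they numbered 258 with the filter of 1 TPM, 69 with only the groups compared, 358 with sample quality weights and 320 with the replicate block over all samples. There, 0 members were called with all annotated genes, only the groups compared or the *Myh4* share. Leaving out 1 sample gave 606 (without abnormal replicate 2) to 1420 genes for abnormal against normal, 576 (without Young replicate 4) to 1677 for abnormal against Young (706 and 808 without Young replicates 1 and 3, 700 and 744 without abnormal replicates 2 and 4) and 45 (without Young replicate 2) to 183 for normal against Young (67 and 48 without Young replicates 1 and 3, 71, 86 and 51 without normal replicates 2, 3 and 4), with 3, 2 to 4 and 0 to 1 members called. The summed receptor subunits of abnormal fibers were 86.5 TPM with TMM-type factors. These factors divided the abnormal samples by 1.06–1.17 and the normal samples by 0.809–0.998, which brought the sums of the aged groups closer.

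Signs that turned belonged to members that were not called. With the *Myh4* share, the change was 0.037 for *Chrng* and 0.074 for *Myog* in abnormal against normal fibers (0.13 for *Myog* with the replicate block added), 0.053 for *Chrne* and 0.073 for *Chrng* in abnormal against Young and -0.040 for *Runx1* in normal against Young. In normal against Young, *Musk* gave 0.039 with TMM-type factors, 0.022 without mitochondrially-encoded genes, 0.011 with a pseudocount of 0.1 and 0.021 with sample quality weights, where *Chrna1* gave 0.0020. Leaving out 1 sample gave -0.10 to 0.036 for *Chrne* and -0.78 to 0.24 for *Ncam1* in abnormal against Young, and -0.094 to 0.035 for *Chrna1*, -0.0014 to 0.22 for *Chrng* and -0.20 to 0.10 for *Musk* in normal against Young. The replicate block changed no call of a member between the aged groups.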

Other observations

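In Young replicate 4, 2 genes stood at 5 TPM or more and over 5-fold above every other sample, a limit chosen after the values were seen. These were *Ncam1* (35.0 TPM, next 6.04 TPM) and the unclassified Gm49348 (9.26 TPM, 0 in all others). The smooth muscle markers stood at 64.3 TPM in Young replicate 2, with *Acta2* at 37.1 TPM, where *Musk* (3.40 TPM) and *Chrnb1* (23.0 TPM) lay within the range of the other Young samples and *Chrne* (25.2 TPM) and *Chrnd* (3.20 TPM) were the highest of the group.

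*Scx*, a transcription factor of tendon cells, followed the order of *Chrnb1*. It was at 7.52–8.90 TPM in Young, 11.8–12.4 TPM in Fluo-4 normal and 13.8–19.6 TPM in Fluo-4 abnormal fibers, without overlap, and was called in abnormal against normal (log2 change 0.42, adjusted p = 0.031), abnormal against Young (0.93, adjusted p = 0.00036) and normal against Young (0.51, adjusted p = 0.044). The other tendon junction markers did not follow that order. *Col22a1*, a collagen of the muscle-tendon junction, was at 1.99–2.88 TPM in Young, 1.11–1.92 TPM in normal and 1.56–3.84 TPM in abnormal fibers, with log2 changes of -0.50 in normal against Young (adjusted p = 0.28, groups not overlapping) and -0.07 in abnormal against Young (adjusted p = 0.88). In normal against Young, 3 of the 4 markers had a negative change, and *Tnmd* was at most 1.14 TPM in any sample.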
